A study of Mus musculus with 8 samples.

Results

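The genes described here encode the constitutive proteasome, taken as every row of the deposited count table whose symbol starts with Psma, Psmb, Psmc or Psmd followed by a number. The 3 immunoproteasome subunits Psmb8, Psmb9 and Psmb10 and 4 pseudogene rows were left out. The rule selected 37 of 32859 genes, and no measured value entered it. Of these, 31 encode subunits of the particle itself: 7 in the alpha ring, 3 catalytic and 4 non-catalytic in the beta ring, 6 ATPases, 3 further base subunits and 8 lid subunits. Another 3 (Psmd5, Psmd9 and Psmd10) encode chaperones of base assembly, and Psma8 and Psmb11 encode paralogs restricted to testis and thymus. Psmc3ip meets the rule by its symbol only. It encodes HOP2, a meiotic recombination factor, and is no proteasome subunit.

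RNA was sequenced from primary portal fibroblasts, the collagen-producing cells around the portal vein of the liver. The cells carried the tdT reporter and had been sorted by fluorescence from livers of normal Clec3bCreERT2;R26tdT mice, in which the Clec3b gene drives a ligand-dependent Cre recombinase that switches the reporter on. A lentivirus that overexpresses Klf4 was added to the cells of 4 libraries (Lenti-Klf4), and a control lentivirus to those of the other 4 (Lenti-Ctrl), in a study of how KLF4 influences the change of these cells into myofibroblasts. All 8 libraries share the reporter genotype and the sort. The sources used here do not give the age of the mice, the time after transduction, the promoter in the vector or whether the 4 libraries of a group come from separate mice, and p-values therefore measure the spread between libraries, which may be technical. Libraries held between 57306334 and 87361995 counts.

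The proteasome degrades proteins tagged with ubiquitin. A barrel-shaped core particle of stacked alpha and beta rings holds the proteolytic sites, and a regulatory particle caps it. The base of that cap carries a ring of ATPases that unfold the substrate, and its lid carries the deubiquitinase that removes the ubiquitin chain. Subunits enter the particle in fixed proportion, and in mammalian cells the transcription factor NRF1 (gene Nfe2l1) raises their genes together when proteasome activity is short. In fibroblasts, as in other cells, it turns over short-lived signalling proteins, SMAD factors of the TGF-beta pathway among them.

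Klf4 itself, the overexpressed gene, had 201, 241, 234 and 235 normalised counts (CPM, counts scaled to library size) in the 4 Lenti-Klf4 libraries, against 86.8, 92.3, 83.0 and 87.1 CPM in the Lenti-Ctrl libraries. Its log2 fold change was 1.38 ± 0.056 (standard error), and every Lenti-Klf4 library lay above every Lenti-Ctrl library. The labelled cell type was checked against markers. Fibroblast markers were abundant in both groups, with a summed level of 8619 to 10181 CPM in Lenti-Klf4 and 27842 to 29014 CPM in Lenti-Ctrl libraries (1 of the 9 tested rose and 8 fell), but Clec3b itself was nearly absent, at 73 counts over the 4 Lenti-Klf4 libraries and 4 counts over the 4 Lenti-Ctrl libraries.

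Proteasome genes moved little and in both directions. Of the 37, 36 passed the filter on low counts in both groups and were tested, and 29 of these 36 differed at an adjusted p under 0.05 by edgeR's quasi-likelihood test. Over all 18439 genes tested 72.2% differed, so the share among proteasome genes, 80.6%, is near that of the transcriptome. Higher in Lenti-Klf4 cells were 21 of the 36 (37.5% of all genes were) and lower were 8 (34.7% of all genes were). Sizes were small: the median absolute log2 fold change was 0.26 over the proteasome genes and 0.70 over all genes, and 4 of the 36 passed an absolute log2 fold change of 1, against 34.1% of all genes. All genes were not matched to the proteasome genes for level. With a filter of 1 CPM in at least 4 libraries the median absolute value over all genes was 0.64. The signed median was 0.11 over the proteasome genes and 0.03 over all genes. Libraries of the groups did not overlap for 20 genes above Lenti-Ctrl and 8 below it. Of all genes 36.0% lay wholly above, 33.2% wholly below and 69.2% on either side. Among the 31 subunits 17 were higher, 7 were lower and 7 did not pass, with a median log2 fold change of 0.10.

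**Figure D1:**
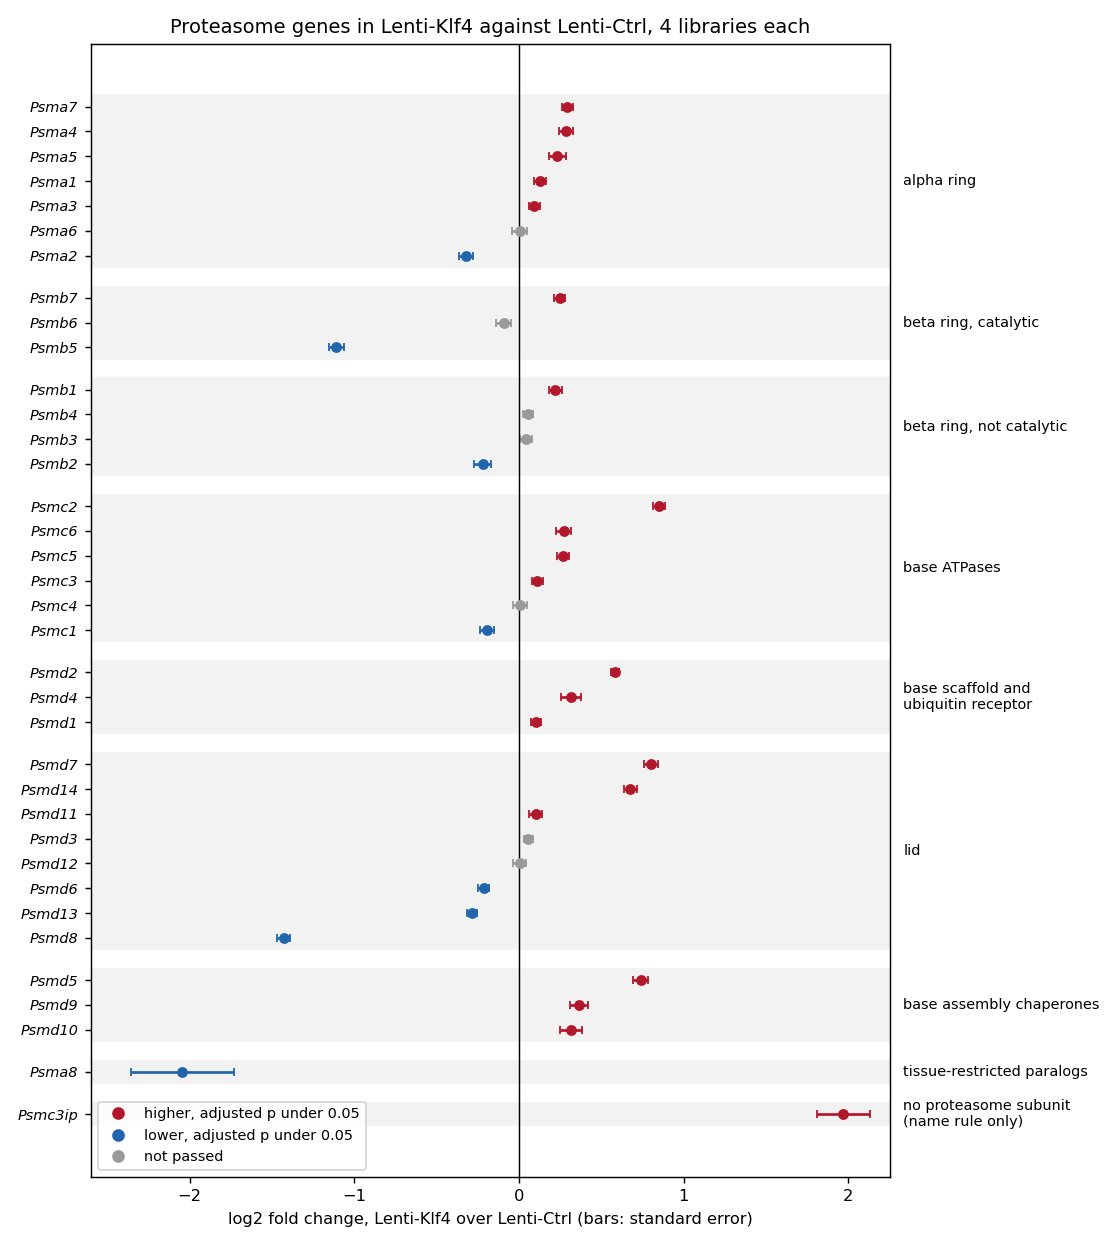
Log2 fold change of each of the 36 tested genes in Lenti-Klf4 over Lenti-Ctrl cells (x axis; bars, standard error of the edgeR fit), ordered by role in the particle; red, higher; blue, lower; grey, not passed. Most points lie within 0.4 of 0, while Psmd8, Psmb5 and Psma8 stand to the left and Psmc2, Psmd7, Psmd5, Psmd14 and Psmc3ip to the right.

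Markers of other cells moved much more than proteasome genes between the same libraries. Macrophage and leukocyte markers summed to 175 to 242 CPM in Lenti-Klf4 and 5374 to 5782 CPM in Lenti-Ctrl libraries. None of the 15 rose, 14 fell and 1 did not pass, and the Kupffer cell gene Clec4f was at 0 in every Lenti-Klf4 library. Endothelial markers summed to 34.3 to 46.9 CPM in Lenti-Klf4 and 420 to 427 CPM in Lenti-Ctrl libraries, and all 9 that were tested fell. Mesothelial markers summed to 549 to 651 CPM in Lenti-Klf4 and 172 to 184 CPM in Lenti-Ctrl libraries, with 4 of 6 higher, Msln and Upk3b among them, while Wt1 (log2 -0.67) and Lrrn4 (log2 -1.14) were lower. Hepatocyte markers summed to 27.2 to 39.2 CPM in Lenti-Klf4 and 329 to 339 CPM in Lenti-Ctrl libraries, with Trf the most abundant in both groups. Of the 4 hepatocyte markers tested Trf (log2 -3.61) and Apob (log2 -2.62) were lower, while Alb (2.98 CPM in Lenti-Klf4 and 0.271 CPM in Lenti-Ctrl libraries) and Hnf4a (0.491 CPM in Lenti-Klf4 and 0.131 CPM in Lenti-Ctrl libraries) were higher. Cholangiocyte markers summed to 696 to 749 CPM in Lenti-Klf4 and 386 to 402 CPM in Lenti-Ctrl libraries, with 4 of 7 higher, 1 lower and 2 not passed. Genes of cycling cells summed to 1189 to 1336 CPM in Lenti-Klf4 and 353 to 374 CPM in Lenti-Ctrl libraries, with 6 of 7 higher. The part of these shifts in the proteasome values was not tested, and in bulk RNA fewer cells of a type and less RNA per cell cannot be told apart.

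Psmd8 was the subunit that fell most. It encodes a lid subunit that in yeast is the last to join the lid. The gene lies at chr7:28873613-28880126 on the minus strand (GRCm39) and had 180, 205, 195 and 189 CPM in the Lenti-Klf4 libraries, against 503, 524, 530 and 515 CPM in the Lenti-Ctrl libraries. Every Lenti-Klf4 library was below every Lenti-Ctrl library by a wide gap. The level was 2.69-fold lower (log2 -1.43 ± 0.038, adjusted p = 6.46e-12). Per transcript length, on the FPKM scale, Psmd8 was the most abundant of the 31 subunits in Lenti-Ctrl cells and the 8th in Lenti-Klf4 cells.

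The catalytic subunits moved apart. Psmb5, which carries the chymotrypsin-like site that bortezomib blocks (chr14:54851576-54855479, minus strand, GRCm39), had 46.7, 47.6, 49.9 and 51.7 CPM in Lenti-Klf4, against 103, 111, 101 and 107 CPM in Lenti-Ctrl libraries. It was 2.16-fold lower, again without overlap (log2 -1.11 ± 0.044, adjusted p = 2.44e-10). Psmb7, which carries the trypsin-like site, went the other way, with 121, 115, 114 and 117 CPM in Lenti-Klf4 and 102, 99.5, 95.9 and 96.4 CPM in Lenti-Ctrl libraries (log2 0.25 ± 0.035, adjusted p = 3.43e-05). Psmb6, which carries the caspase-like site, had 86.8, 81.2, 82.8 and 82.2 CPM in Lenti-Klf4 and 82.0, 89.2, 91.7 and 92.8 CPM in Lenti-Ctrl libraries. Its groups overlapped and it did not pass (log2 -0.095 ± 0.044, adjusted p = 0.0723), though it passed without Lenti-Ctrl replicate 1 (log2 -0.134, adjusted p = 0.0106) or without Lenti-Klf4 replicate 1 (log2 -0.128, adjusted p = 0.0317). It also passed as lower when libraries were scaled by relative log expression (RLE) size factors (log2 -0.123, adjusted p = 0.0305) and with upper-quartile factors (log2 -0.161, adjusted p = 0.00641), while library totals turned its sign (log2 0.0998, adjusted p = 0.0604).

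Among the subunits that rose, Psmc2 and Psmd7 rose most. Psmc2 encodes an ATPase of the base ring (chr5:21990281-22008785, plus strand, GRCm39) and had 222, 202, 211 and 201 CPM in Lenti-Klf4, against 114, 118, 115 and 117 CPM in Lenti-Ctrl libraries. The groups were well separated, 1.80-fold higher in Lenti-Klf4 (log2 0.85 ± 0.037, adjusted p = 5.33e-10). Psmd7 encodes the lid subunit that pairs with the deubiquitinase Psmd14 (chr8:108307013-108315096, minus strand, GRCm39). It had 240, 223, 213 and 210 CPM in Lenti-Klf4 and 128, 127, 126 and 127 CPM in Lenti-Ctrl libraries, 1.74-fold higher (log2 0.80 ± 0.041, adjusted p = 2.51e-09). Its partner Psmd14, which cuts the ubiquitin chain off the substrate, had 155, 148, 146 and 140 CPM in Lenti-Klf4 and 94.3, 93.9, 88.4 and 92.1 CPM in Lenti-Ctrl libraries (log2 0.68 ± 0.039, adjusted p = 7.74e-09). Both partners thus stood above Lenti-Ctrl in every library.

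Psmd2, the large base scaffold on which ubiquitin shuttles dock (chr16:20470402-20482164, plus strand, GRCm39), had the highest FPKM of all subunits in Lenti-Klf4 cells. It was at 138, 138, 139 and 138 FPKM in Lenti-Klf4 and 79.5, 83.0, 79.4 and 79.8 FPKM in Lenti-Ctrl libraries. In counts it was 1.498-fold higher (562 ± 4.07 CPM in Lenti-Klf4 and 375 ± 9.93 CPM in Lenti-Ctrl cells, SD, n = 4 each; log2 0.58 ± 0.026, adjusted p = 6.08e-10). Libraries of 1 group lay close together for it.

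**Figure D2:**
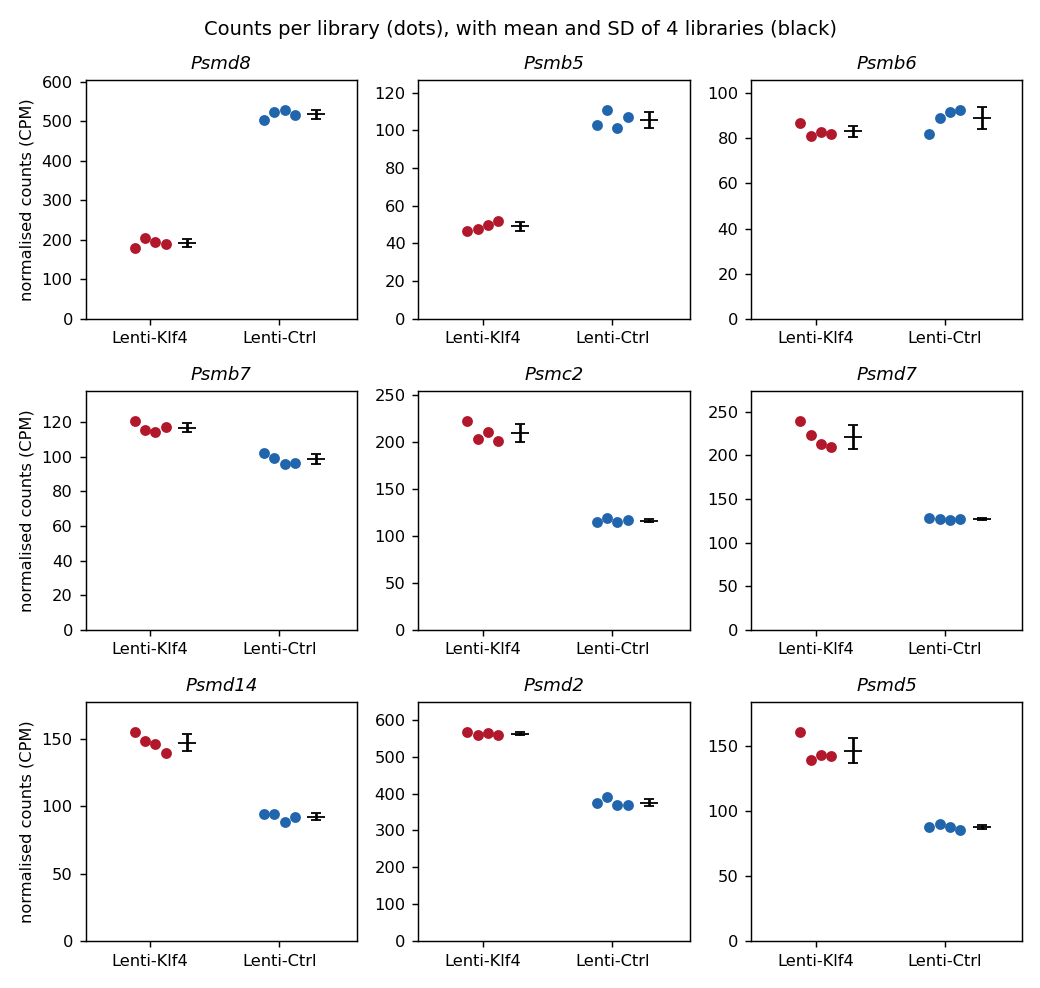
Normalised counts (CPM, y axis from 0) of 9 genes in each of the 4 Lenti-Klf4 (red) and 4 Lenti-Ctrl (blue) libraries, with the mean and SD in black. Psmd8 and Psmb5 are lower in every Lenti-Klf4 library, Psmb6 overlaps, and Psmb7, Psmc2, Psmd7, Psmd14, Psmd2 and Psmd5 are higher in every Lenti-Klf4 library.

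The regions just upstream of the 2 subunits that fell most and of 3 genes that rose are shown, so that the promoters of genes that moved in opposite directions can be set beside each other. Each is the 250 bases before the annotated start, 5′ to 3′ on the gene's strand, from RefSeq on GRCm38.p6, an older build than the GRCm39 coordinates above. Capitals mark, on either strand, the antioxidant element TGANNNNGC bound by NRF1, the CCAAT box bound by NF-Y and the CACCC box to which Krüppel-like factors bind. The windows are chr7:29180674-29180923 (minus) for Psmd8, chr14:54617996-54618245 (minus) for Psmb5, chr5:21785025-21785274 (plus; the first of 2 windows of the gene) for Psmc2, chr2:34870963-34871212 (minus) for Psmd5 and chr2:61711444-61711693 (plus) for Psmd14.
Psmd8: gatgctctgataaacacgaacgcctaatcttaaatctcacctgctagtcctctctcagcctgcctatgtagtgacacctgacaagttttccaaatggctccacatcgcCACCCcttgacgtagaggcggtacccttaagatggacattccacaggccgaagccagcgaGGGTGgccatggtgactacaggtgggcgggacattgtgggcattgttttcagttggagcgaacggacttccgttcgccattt
Psmb5: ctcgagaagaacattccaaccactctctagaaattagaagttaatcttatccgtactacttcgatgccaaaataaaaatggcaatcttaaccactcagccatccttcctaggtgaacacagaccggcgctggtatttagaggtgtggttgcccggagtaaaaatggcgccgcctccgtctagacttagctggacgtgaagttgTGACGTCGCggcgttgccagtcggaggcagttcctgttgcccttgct
Psmc2: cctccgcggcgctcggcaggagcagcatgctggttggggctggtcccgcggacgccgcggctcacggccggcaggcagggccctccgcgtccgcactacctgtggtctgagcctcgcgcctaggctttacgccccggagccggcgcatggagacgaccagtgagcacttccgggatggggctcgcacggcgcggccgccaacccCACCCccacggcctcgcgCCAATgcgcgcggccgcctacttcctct
Psmd5: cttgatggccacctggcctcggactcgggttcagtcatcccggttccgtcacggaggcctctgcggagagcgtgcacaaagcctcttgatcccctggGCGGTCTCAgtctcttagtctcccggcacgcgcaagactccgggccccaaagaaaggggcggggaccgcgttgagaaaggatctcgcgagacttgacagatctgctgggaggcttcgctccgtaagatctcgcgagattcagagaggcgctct
Psmd14: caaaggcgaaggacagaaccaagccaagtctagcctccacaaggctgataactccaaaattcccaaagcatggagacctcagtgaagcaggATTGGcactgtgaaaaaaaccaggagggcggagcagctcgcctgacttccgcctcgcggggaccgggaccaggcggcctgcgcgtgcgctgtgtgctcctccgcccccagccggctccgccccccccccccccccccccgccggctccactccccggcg

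Psmd8 held 2 CACCC matches and neither other motif, and Psmb5 held 1 TGANNNNGC match. The printed Psmc2 window held 1 CCAAT and 1 CACCC match and its other window, which is not printed, 2 TGANNNNGC matches and 1 CACCC match, Psmd5 1 TGANNNNGC match, and Psmd14 1 CCAAT match. In all, 30 of the 37 genes matched a RefSeq entry, with 32 windows. TGANNNNGC stood in 14 of these 32 windows (43.8%), against 35.2% of all 32851 windows of the same length. CCAAT stood in 13 (40.6%, against 33.8% of all) and CACCC in 12 (37.5%, against 52.0% of all). Matches of different motifs may overlap, and each motif was counted on its own. Among the 18 windows of genes that rose, 7 held TGANNNNGC (38.9%), 8 held CCAAT (44.4%) and 9 held CACCC (50.0%). Among the 6 windows of genes that fell, 1 held TGANNNNGC, 2 held CCAAT and 1 held CACCC. With only 6 windows of genes that fell, these shares are imprecise, and their difference was not tested. A match describes the letters of the window and no binding was measured.

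In the alpha ring, which gates entry to the core, 5 of 7 genes rose, Psma2 fell and Psma6 did not pass. Over all genes tested 37.5% were higher and 34.7% lower, the shares to set beside each count per role below. Psma7 averaged 130 ± 2.56 CPM in Lenti-Klf4 and 106 ± 3.49 CPM in Lenti-Ctrl cells (SD, n = 4 each; log2 0.29, adjusted p = 6.46e-06), and Psma4 and Psma5 had log2 fold changes of 0.29 and 0.23. Psma1 (0.13) and Psma3 (0.093) passed with smaller changes, and Psma3 no longer passed without Lenti-Ctrl replicate 3 (0.0776), Lenti-Klf4 replicate 1 (0.0761) or Lenti-Klf4 replicate 2 (0.0675). Psma2 fell to 81.6 ± 5.10 CPM in Lenti-Klf4, against 102 ± 0.969 CPM in Lenti-Ctrl cells (log2 -0.32, adjusted p = 2.82e-05). Psma6 had 95.7, 87.4, 93.6 and 89.2 CPM in Lenti-Klf4 and 89.0, 86.1, 97.4 and 93.0 CPM in Lenti-Ctrl libraries, which overlapped (adjusted p = 0.964).

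Of the 4 non-catalytic beta subunits, which complete the inner rings, Psmb1 rose (log2 0.22, adjusted p = 0.000207) and Psmb2 fell (log2 -0.22, adjusted p = 0.00142). Psmb3 had 84.6, 86.2, 83.5 and 85.1 CPM in Lenti-Klf4 and 82.7, 85.4, 77.9 and 83.4 CPM in Lenti-Ctrl libraries (adjusted p = 0.313). Psmb4 had 170, 161, 165 and 160 CPM in Lenti-Klf4 and 159, 156, 157 and 161 CPM in Lenti-Ctrl libraries (adjusted p = 0.154). Both overlapped between the groups.

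In the ATPase ring 4 of 6 genes rose (66.7%, against 37.5% higher over all genes tested). Beside Psmc2, these were Psmc6 (log2 0.27), Psmc5 (log2 0.27, 106 ± 3.67 CPM in Lenti-Klf4 and 88.3 ± 2.53 CPM in Lenti-Ctrl cells, SD, n = 4 each) and Psmc3 (log2 0.11). Without Lenti-Klf4 replicate 2 Psmc3 no longer passed (log2 0.0849, adjusted p = 0.07). Psmc1 fell to 116 ± 4.68 CPM in Lenti-Klf4, against 133 ± 6.66 CPM in Lenti-Ctrl cells (log2 -0.19, adjusted p = 0.00145), a direction that turned to a log2 fold change of 0.00059 with library totals alone. Psmc4 had 134, 124, 121 and 120 CPM in Lenti-Klf4 and 121, 130, 125 and 121 CPM in Lenti-Ctrl libraries, which overlapped (adjusted p = 0.91). The remaining base genes both rose: Psmd4, a ubiquitin receptor, with a log2 fold change of 0.32 (adjusted p = 0.000405), and Psmd1, a scaffold, with 0.10 (adjusted p = 0.0143) and overlapping libraries. Psmd1 missed the threshold without Lenti-Ctrl replicate 4 (log2 0.0849, adjusted p = 0.0532) or Lenti-Klf4 replicate 4 (log2 0.0819, adjusted p = 0.0718).

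The 8 lid genes divided evenly (37.5% higher and 37.5% lower, against 37.5% and 34.7% over all genes tested). Psmd7, Psmd14 and Psmd11 (log2 0.10, adjusted p = 0.0336, groups overlapping) rose, and Psmd8, Psmd13 and Psmd6 fell. The call for Psmd11 was lost when Lenti-Klf4 replicate 1, 2 or 4 or Lenti-Ctrl replicate 2, 3 or 4 was left out (log2 0.0694 to 0.105). Psmd13 fell to 109 ± 1.80 CPM in Lenti-Klf4, against 133 ± 1.76 CPM in Lenti-Ctrl cells (SD, n = 4 each; log2 -0.29, adjusted p = 2.23e-06), and Psmd6 fell by 0.21 on the log2 scale. Psmd12 had 107, 97.4, 97.4 and 98.7 CPM in Lenti-Klf4 and 101, 98.3, 98.3 and 101 CPM in Lenti-Ctrl libraries (adjusted p = 0.94). Psmd3 had 173, 169, 167 and 168 CPM in Lenti-Klf4 and 159, 165, 166 and 160 CPM in Lenti-Ctrl libraries. Its Lenti-Klf4 libraries lay just above all Lenti-Ctrl libraries, but the change did not pass (log2 0.06, adjusted p = 0.1).

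All 3 base assembly chaperones, which hold ATPase modules until the ring closes and are absent from the finished particle, rose. Over all genes tested 37.5% were higher. Psmd5 had 161, 139, 143 and 142 CPM in Lenti-Klf4, against 87.6, 89.8, 87.6 and 85.6 CPM in Lenti-Ctrl libraries (1.67-fold, log2 0.74 ± 0.046, adjusted p = 1.44e-08). Psmd9 had 38.6, 38.0, 40.2 and 42.3 CPM in Lenti-Klf4 and 30.5, 32.9, 30.3 and 30.0 CPM in Lenti-Ctrl libraries (log2 0.36, adjusted p = 6.25e-05). Psmd10, also known as gankyrin, averaged 26.5 ± 1.81 CPM in Lenti-Klf4 and 21.3 ± 0.835 CPM in Lenti-Ctrl cells (SD, n = 4 each; log2 0.31, adjusted p = 0.000986). No library of either group crossed into the other for any of the 3.

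The tissue-restricted paralogs were at low levels, and Psmb11 was near the limit of detection. Psma8, the testis form of Psma7, had 0.626, 0.434, 0.745 and 0.388 CPM in Lenti-Klf4 and 2.89, 1.37, 2.59 and 2.25 CPM in Lenti-Ctrl libraries (log2 -2.05 ± 0.31, adjusted p = 7.27e-05). All Lenti-Klf4 values were lower, from 25 to 55 counts per library, against 80 to 235 counts in Lenti-Ctrl libraries. The sources used here do not say how reads shared between Psma8 and its close copy Psma7 were assigned, and the split between them is uncertain. Psmb11, the thymus form, had 0 counts in every Lenti-Klf4 library, which allows up to 0.0107 CPM over the group (3 counts), and 0 to 4 counts per Lenti-Ctrl library, and was not tested.

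Psmc3ip showed the steepest rise among genes of the name rule. It had 9.71, 9.004, 9.57 and 8.75 CPM in Lenti-Klf4 and 1.82, 3.01, 2.16 and 2.48 CPM in Lenti-Ctrl libraries, 3.92-fold higher (log2 1.97 ± 0.16, adjusted p = 2.05e-07). The groups were far apart at a low level. Of 7 genes of cycling cells 6 rose in the same libraries and Mki67 did not, as given above. Their part in this value was not tested.

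Per transcript length the spread over the 31 subunits was smaller in Lenti-Klf4 than in Lenti-Ctrl cells. This spread includes Psmd8 and Psmb5, the highest subunits in Lenti-Ctrl cells, which fell towards the other subunits in Lenti-Klf4 cells. The spread without Psmd8 and Psmb5 was not calculated. The smaller value over all 31 therefore does not show that the remaining subunits lay closer to each other, which was not tested. Over the 31 subunits the SD of log2 FPKM within a library was 0.65 ± 0.012 in Lenti-Klf4 and 0.74 ± 0.0070 in Lenti-Ctrl libraries (mean ± SD, n = 4 each), and the libraries of the groups did not overlap. The median subunit stood at 49.4 ± 1.10 FPKM in Lenti-Klf4 and 34.6 ± 1.24 FPKM in Lenti-Ctrl cells. FPKM carry no correction for composition between libraries, so fold changes in the text come from counts unless FPKM is named. The highest subunit exceeded the lowest, Psmd11 in both groups, 8.05-fold in Lenti-Klf4 and 10.5-fold in Lenti-Ctrl cells on average. Psmd8 stood at 62.5 ± 3.69 FPKM in Lenti-Klf4 and 147 ± 3.84 FPKM in Lenti-Ctrl cells, and Psmb5 at 54.1 ± 2.74 FPKM in Lenti-Klf4 and 102 ± 3.97 FPKM in Lenti-Ctrl cells (SD, n = 4 each). These were the first and the second subunits by level in Lenti-Ctrl cells and ranked 8 and 13 in Lenti-Klf4 cells, while Psmd2 and Psmd7, ranked 3 and 11 in Lenti-Ctrl cells, were the first and the second in Lenti-Klf4 cells. In the middle of the order neighbours differed by less than their spread, as for Psmd14 (51.8 ± 1.94 FPKM) and Psmd4 (50.7 ± 1.93 FPKM) in Lenti-Klf4 cells.

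**Figure D3:**
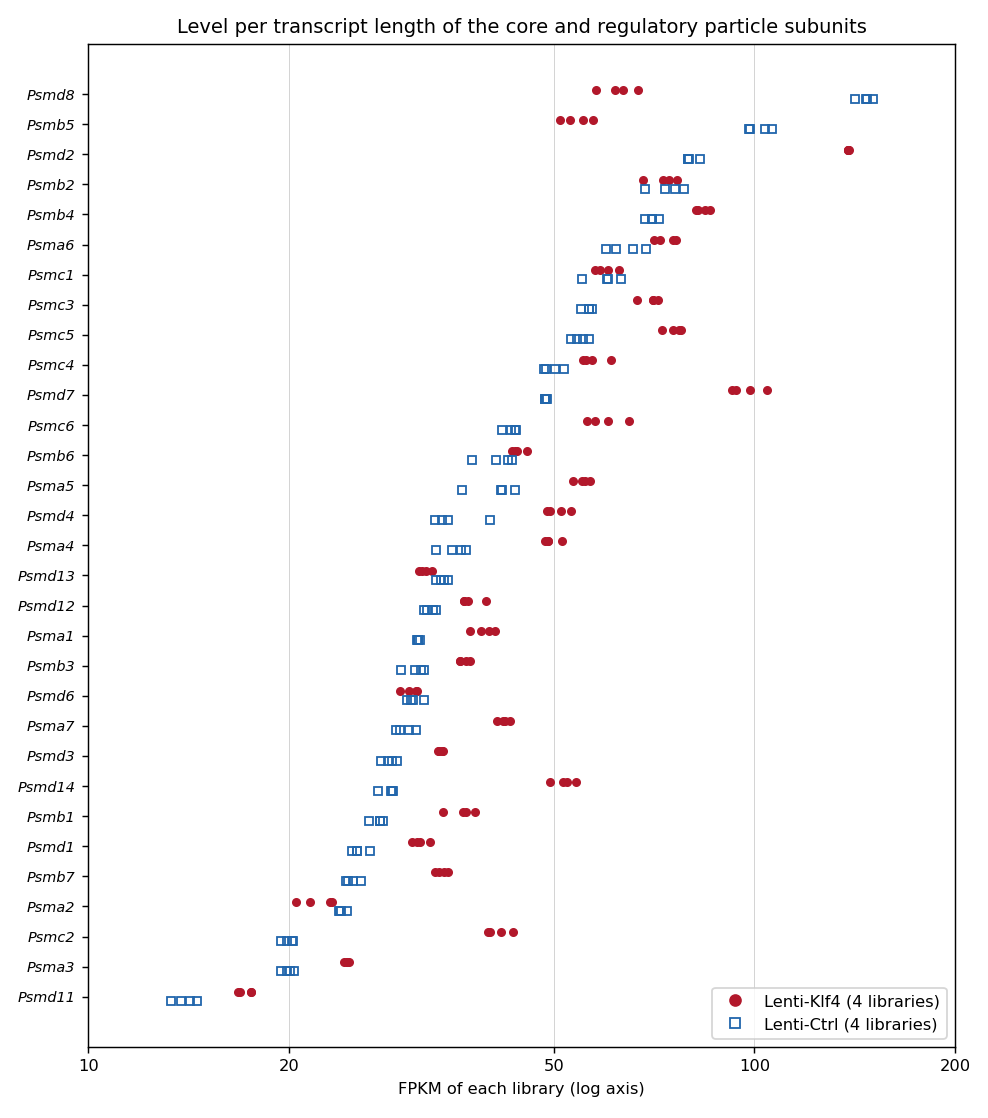
FPKM of the 31 subunits in each Lenti-Klf4 (red circles) and Lenti-Ctrl (blue squares) library on a log axis, ordered by the Lenti-Ctrl mean. Psmd8 and Psmb5, at the top in Lenti-Ctrl cells, lie within the range of the other subunits in Lenti-Klf4 cells, and Psmd2 and Psmd7 lie furthest to the right there.

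Dividing each subunit by the geometric mean of the other 30 within the library gives a measure on which the scaling of libraries has no effect. Psmd8 was 1.34 ± 0.096 times the other subunits in Lenti-Klf4 and 3.89 ± 0.10 times in Lenti-Ctrl cells, a log2 difference of -1.54 (FPKM, SD, n = 4 each). Psmb5 was 1.15 ± 0.074 times in Lenti-Klf4 and 2.66 ± 0.088 times in Lenti-Ctrl cells. Psmc2 was 0.87 ± 0.024 times in Lenti-Klf4 and 0.495 ± 0.0056 times in Lenti-Ctrl cells, and Psmd7 was 2.11 ± 0.095 times in Lenti-Klf4 and 1.24 ± 0.010 times in Lenti-Ctrl cells. The direction matched that of the counts for all 4 genes, and none overlapped between groups. On this measure the groups overlapped for Psmd12, Psma6, Psmc4, Psmb3, Psmb4, Psmd3, Psma3, Psmd11, Psmd1 and Psmc3. Every Lenti-Klf4 library was lower for Psmb6 (mean 0.934 in Lenti-Klf4 and 1.04 in Lenti-Ctrl cells), Psmc1 (1.28 and 1.53), Psmd6 (0.637 and 0.775) and Psmb2 (1.57 and 1.92). For Psma1 every Lenti-Klf4 library was higher (0.827 and 0.788). These values are relative to the other subunits.

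The small changes depended on how libraries were scaled. TMM factors, RLE size factors, upper-quartile factors and library totals alone gave the same call for 16 higher and 5 lower genes. The 5 were Psmd8, Psmb5, Psma8, Psma2 and Psmd13, and the 16 included Psmc2, Psmd7, Psmd5, Psmd14, Psmd2 and Psmc3ip. For the other 15, among them Psma1, Psma3, Psmc3, Psmd1, Psmd11, Psmc1, Psmd6 and Psmb2, the call changed with the scaling. Library totals alone moved the median of all genes up by 0.19 (log2) and gave 27 higher and 5 lower proteasome genes (45.2% and 28.0% of all genes), so that 84.4% of called proteasome genes were higher, against 72.4% with TMM. Over all genes tested 61.7% of calls were higher with library totals and 52.0% with TMM. Of all counts in a library, the 31 subunits took 0.479 ± 0.0080% in Lenti-Klf4 and 0.400 ± 0.0032% in Lenti-Ctrl libraries (SD, n = 4 each). A test against a fold change of 1.2 left 7 higher (Psmc3ip, Psmc2, Psmd7, Psmd5, Psmd14, Psmd2 and Psmd9) and 3 lower (Psma8, Psmd8 and Psmb5), where 30.5% of all genes were higher and 28.4% lower.

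**Figure D4:**
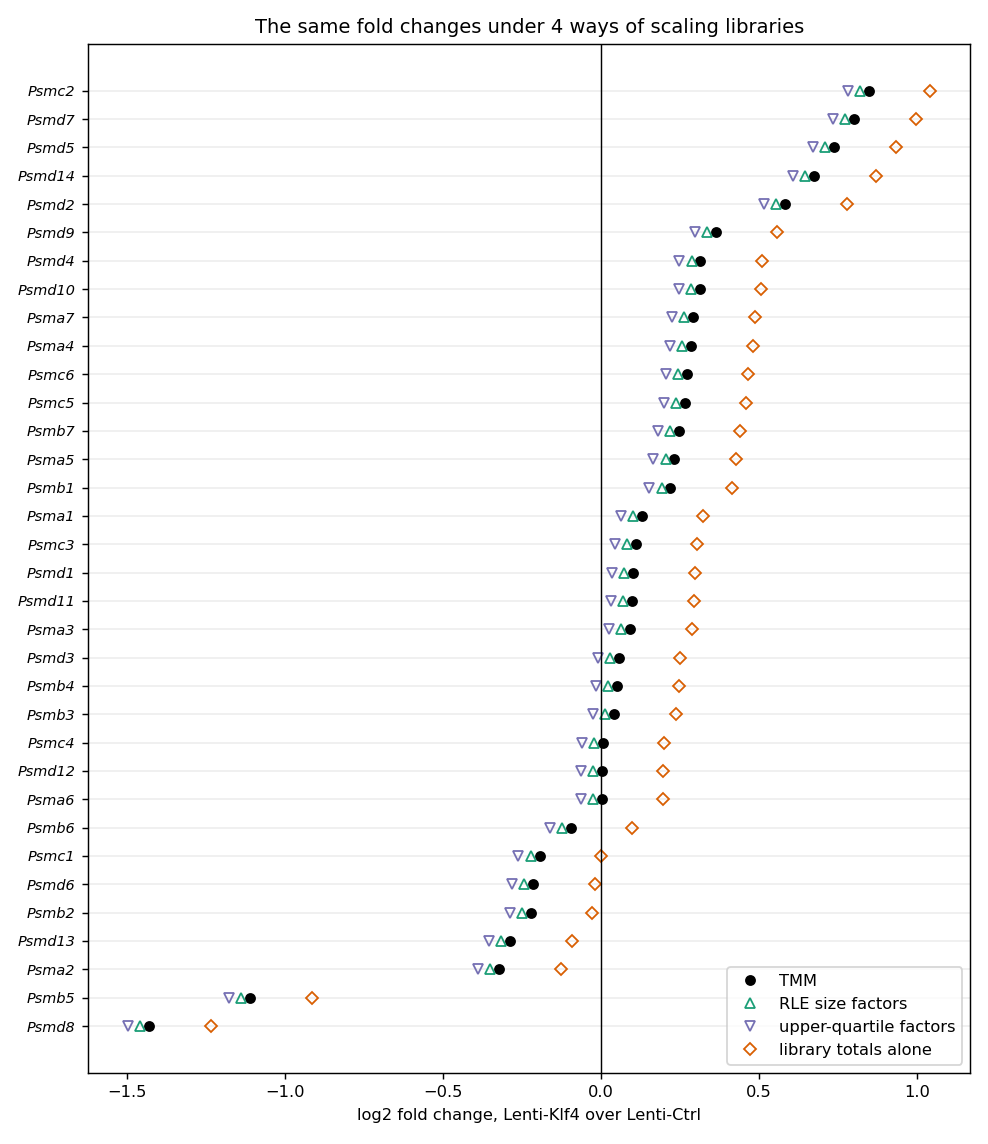
Log2 fold change, Lenti-Klf4 over Lenti-Ctrl, of the 31 subunits and 3 assembly chaperones under 4 ways of scaling the libraries (symbols). Library totals alone (diamonds) shift each gene to the right by about the same amount, so genes near 0 change side while Psmd8 and Psmb5 stay left and Psmc2, Psmd7, Psmd5, Psmd14 and Psmd2 stay right.

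In the authors' deposited table of differential expression, 35 of the 37 genes were matched among 11361 genes. That authors' deposited table marks Psmc3ip as up (log2 fold change 1.89), Psmd8 as down (log2 fold change -1.51) and the other 33 as stable, among them Psmb5 at -1.19. Its adjusted p was under 0.05 for 16 higher and 8 lower of these genes, and the same share over all its genes was not calculated. The median log2 fold change there was 0.029 over the matched genes and 0.0013 over all its genes. Psmd3, Psmb4, Psmb3, Psmc4, Psmd12 and Psma6 were below 0 there and above 0 in the edgeR fit.

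Several members share sequence or position with other genes. A pseudogene of Psma5 held 990 counts over the 4 Lenti-Klf4 libraries and 834 over the 4 Lenti-Ctrl libraries and did not pass, and the Psmb5 pseudogene held 0 counts in Lenti-Klf4 and 4 in Lenti-Ctrl libraries. On GRCm39, 17 of the 37 genes overlap another gene of the table, 14 on the other strand and 7 on the same strand. Psma2 shares 8943 bases of its strand with AW209491, which averaged 27.1 CPM in Lenti-Klf4 and 18.2 CPM in Lenti-Ctrl cells, and Psmd13 overlaps the pseudogene Gm15542, at 13.9 CPM in Lenti-Klf4 and 9.21 CPM in Lenti-Ctrl cells. Both neighbours averaged higher in Lenti-Klf4 cells, where the subunit was lower. Psmd8, Psmc2, Psmd7 and Psmd2 overlap no other gene of the table. The libraries mark strand, per the labels' protocols, but no source used here gives the strand setting of the counting. By position the 37 genes lie on 16 chromosomes, with the most, 7, on chromosome 11.

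Genes that work beside the particle were read out in lists chosen by function, with Lenti-Klf4 set over Lenti-Ctrl cells as before. Over all lists 29 of 42 genes were higher, 6 were lower and 7 did not pass, with a median log2 fold change of 0.25, against 0.03 over all genes tested. In the lists 69.0% of genes were higher and 14.3% lower, against 37.5% higher and 34.7% lower over all genes tested. The lists were chosen with earlier results of these data known, so the shares here and per list below are descriptive and no independent test. The difference from the subunits was not tested. The 2 complex partners outside the name rule both rose: Adrm1, a ubiquitin receptor of the base, with 129 ± 4.26 CPM in Lenti-Klf4 and 99.8 ± 6.51 CPM in Lenti-Ctrl cells (SD, n = 4 each; log2 0.37, adjusted p = 1.53e-05), and Sem1, a small lid subunit, with a log2 fold change of 0.60.

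The core assembly chaperones Psmg1 to Psmg4 rose, each with a larger log2 fold change than any alpha or beta subunit, of which Psma7 was the highest at 0.29. Psmg1 and Psmg2, which pair to build the alpha ring, averaged 30.2 ± 1.26 and 33.0 ± 1.31 CPM in Lenti-Klf4 and 16.0 ± 1.16 and 16.9 ± 1.29 CPM in Lenti-Ctrl cells (SD, n = 4 each). Their log2 fold changes were 0.92 (adjusted p = 9.51e-08) and 0.96 (adjusted p = 5.15e-08). Psmg3 and Psmg4, a second such pair, had log2 fold changes of 0.89 and 1.23. Pomp, the maturation factor of the beta ring, had 58.8 ± 0.985 CPM in Lenti-Klf4 and 63.2 ± 6.54 CPM in Lenti-Ctrl cells (adjusted p = 0.157), and Akirin2, which carries proteasomes into the nucleus, had 68.2 ± 4.14 CPM in Lenti-Klf4 and 65.0 ± 1.33 CPM in Lenti-Ctrl cells (adjusted p = 0.187). Neither passed, but Pomp was lower without Lenti-Ctrl replicate 3 (log2 -0.165, adjusted p = 0.0132).

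The immunoproteasome subunits, which replace the catalytic ones in cells exposed to interferon, also divided. Psmb8, the counterpart of Psmb5, fell to 8.52 ± 0.890 CPM in Lenti-Klf4, against 17.5 ± 1.39 CPM in Lenti-Ctrl cells (SD, n = 4 each; log2 -1.04, adjusted p = 1e-06). Psmb9 and Psmb10 rose by log2 fold changes of 0.52 (adjusted p = 0.00898) and 0.69 (adjusted p = 4.26e-06). Macrophage and leukocyte markers fell in the same libraries, as given above, and their part in these values was not tested.

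As a share of its constitutive partner in FPKM, Psmb8 stood at 4.60 ± 0.28% of Psmb5 in Lenti-Klf4 and 4.39 ± 0.17% in Lenti-Ctrl cells (n = 4 each, two-sided exact permutation p = 0.286). Psmb9 stood at 2.97 ± 0.28% of Psmb6 in Lenti-Klf4 and 1.93 ± 0.34% in Lenti-Ctrl cells, and Psmb10 at 60.4 ± 3.36% of Psmb7 in Lenti-Klf4 and 44.6 ± 4.77% in Lenti-Ctrl cells. Both of these were higher in every Lenti-Klf4 library, at an exact permutation p of 0.0286, the smallest that 70 splits can give, and 0.0429 after Benjamini-Hochberg adjustment over the 3 pairs. The groups of the Psmb8 to Psmb5 ratio overlapped.

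Of 4 genes of alternative caps, which bind the core in place of the regulatory particle, 3 were slightly higher and 1 did not pass. The core inhibitor gene of the same list was higher, so that 80.0% of the list was higher, against 37.5% over all genes tested. Psme1 and Psme2, which form the interferon-inducible cap, had log2 fold changes of 0.47 (adjusted p = 1.27e-05) and 0.24. Psmf1, an inhibitor of the core, rose by 0.35 (adjusted p = 3.71e-05) and the nuclear cap gene Psme3 by 0.10 (adjusted p = 0.0127), a call lost without Lenti-Klf4 replicate 4 (log2 0.0861, adjusted p = 0.052), with RLE size factors (adjusted p = 0.0505) and with upper-quartile factors (adjusted p = 0.338). Psme4, a nuclear cap known from mouse spermatogenesis, did not pass, at 128 ± 2.61 CPM in Lenti-Klf4 and 125 ± 2.94 CPM in Lenti-Ctrl cells (SD, n = 4 each, adjusted p = 0.412).

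Genes that activate or encode NRF1 moved in both directions: of 5, 1 rose, 2 fell and 2 did not pass. Nfe2l1 had 419 ± 8.43 CPM in Lenti-Klf4 and 432 ± 5.90 CPM in Lenti-Ctrl cells (SD, n = 4 each; log2 -0.043, adjusted p = 0.151). It passed as lower without Lenti-Klf4 replicate 2 (log2 -0.0726, adjusted p = 0.037), with DESeq2, with RLE size factors (log2 -0.0709, adjusted p = 0.0213) and with upper-quartile factors (log2 -0.109, adjusted p = 0.00155), while scaling by library totals turned it to higher (log2 0.152, adjusted p = 0.000131). Ngly1, which removes its sugar chains, had 23.7 ± 2.03 CPM in Lenti-Klf4 and 24.8 ± 2.06 CPM in Lenti-Ctrl cells (adjusted p = 0.48). The protease gene Ddi2, which cuts NRF1 to its active form, fell to 88.3 ± 2.48 CPM in Lenti-Klf4, against 142 ± 3.58 CPM in Lenti-Ctrl cells (log2 -0.68, adjusted p = 2.02e-09). Vcp, the p97 ATPase that pulls NRF1 out of the endoplasmic reticulum membrane, fell to 327 ± 10.6 CPM in Lenti-Klf4, against 551 ± 14.6 CPM in Lenti-Ctrl cells (log2 -0.75, adjusted p = 3.04e-10). The shuttle Rad23b, also in this list, rose by 0.18 on the log2 scale (adjusted p = 5.44e-05). Of p97 and its cofactors 4 of 8 rose and 4 fell (50.0% each, against 37.5% higher and 34.7% lower over all genes tested). Faf1 (log2 0.89) and Nsfl1c (log2 0.57) rose, as did Ubxn1 and Ufd1, while Vcp, Nploc4 (log2 -0.30), Ubxn6 and Faf2 fell.

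Shuttles and enzymes bound to the proteasome rose in 10 of 12 cases (83.3%, against 37.5% higher over all genes tested). Among the 10, the call of Txnl1 (log2 0.13, adjusted p = 0.0077) was lost with upper-quartile factors (adjusted p = 0.162) and without Lenti-Klf4 replicate 4 (adjusted p = 0.0512). Zfand2a, a zinc-finger protein induced by proteotoxic stress, averaged 177 ± 2.24 CPM in Lenti-Klf4 and 70.7 ± 2.12 CPM in Lenti-Ctrl cells (SD, n = 4 each; log2 1.33, adjusted p = 3.46e-12). Zfand5, which stimulates the proteasome in wasting muscle, averaged 168 ± 7.30 CPM in Lenti-Klf4 and 73.3 ± 2.68 CPM in Lenti-Ctrl cells (2.30-fold higher, adjusted p = 5.6e-11). The deubiquitinase Uchl5, which is held by Adrm1, rose by 1.09 on the log2 scale. Only Ubqln1 in this list did not pass (169 ± 1.94 CPM in Lenti-Klf4 and 174 ± 7.15 CPM in Lenti-Ctrl cells, adjusted p = 0.356), and only Ddi2 fell.

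Of the 4 ubiquitin genes and ubiquitin-activating enzymes in the list 3 rose (75.0%, against 37.5% higher over all genes tested). The activating enzyme gene Uba6 averaged 91.9 ± 2.83 CPM in Lenti-Klf4 and 46.5 ± 4.69 CPM in Lenti-Ctrl cells (SD, n = 4 each; log2 0.98, adjusted p = 2.46e-08), and Uba1, which activates most of the ubiquitin of the cell, rose by 0.15 on the log2 scale (adjusted p = 0.000127). Rps27a, which encodes ubiquitin fused to a ribosomal protein, was higher by 0.080 on the log2 scale (adjusted p = 0.0206). That call was lost with RLE size factors (adjusted p = 0.112), with DESeq2, with upper-quartile factors (adjusted p = 0.662) and without any 1 of Lenti-Klf4 replicates 1, 2 and 3 or Lenti-Ctrl replicates 3 and 4 (adjusted p = 0.0508 to 0.0979). Ubb, a polyubiquitin gene, had 702 ± 2.93 CPM in Lenti-Klf4 and 668 ± 34.7 CPM in Lenti-Ctrl cells and did not pass (adjusted p = 0.0682), but did without Lenti-Ctrl replicate 2 (log2 0.106, adjusted p = 0.00307).

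**Figure D5:**
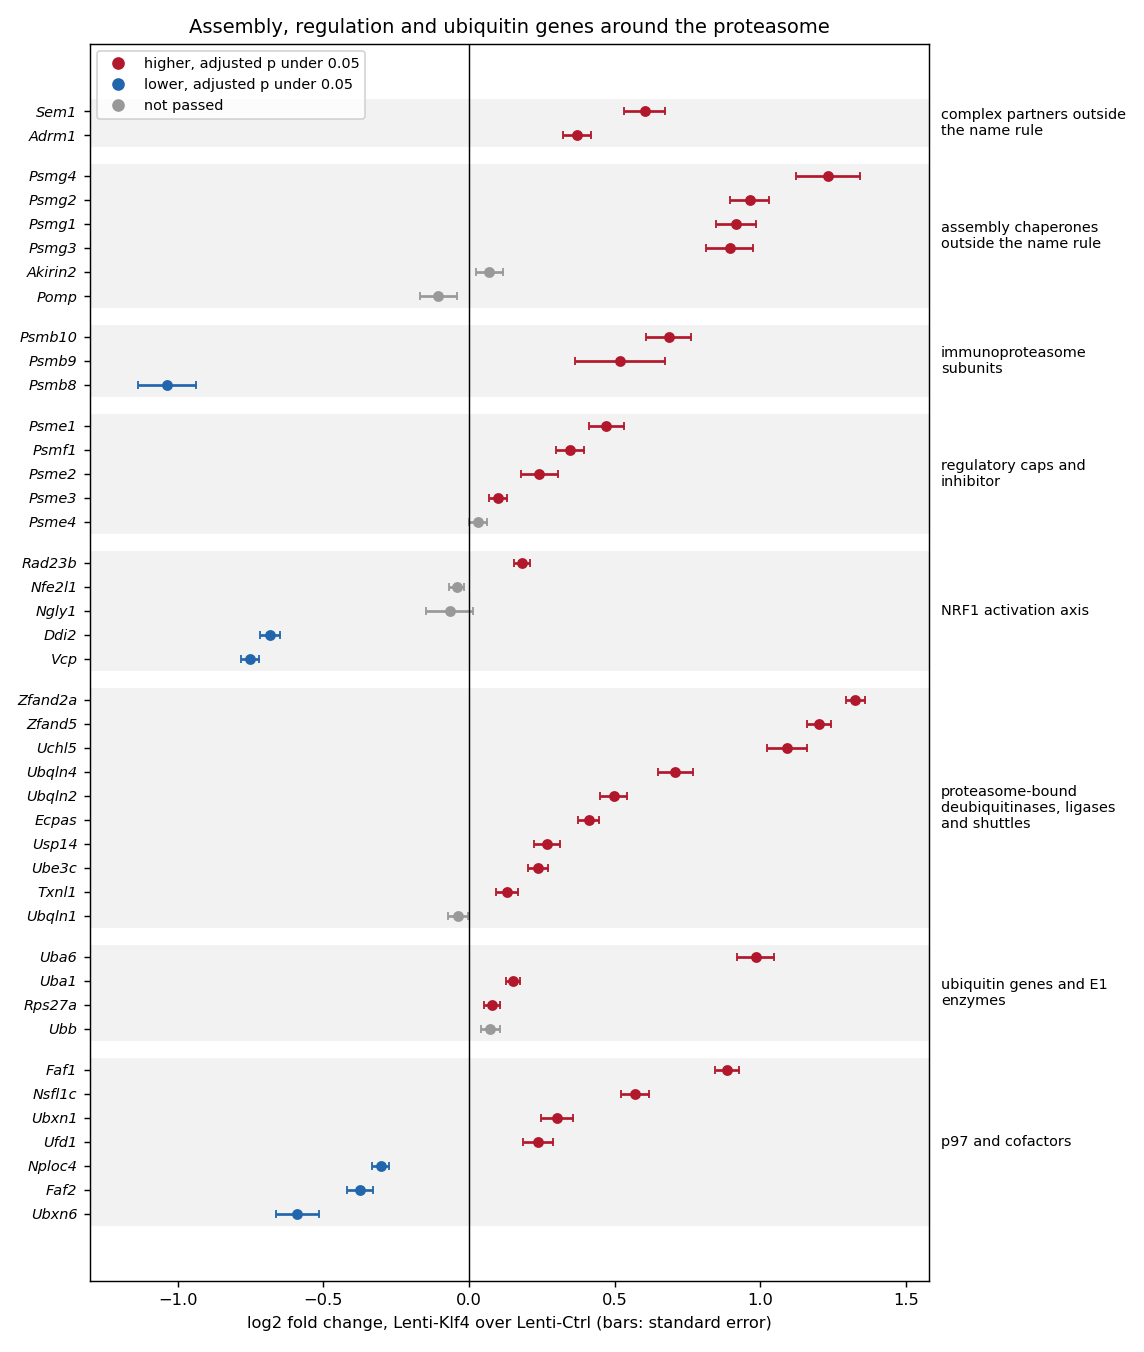
Log2 fold change, Lenti-Klf4 over Lenti-Ctrl (bars, standard error of the edgeR fit), of genes that assemble, regulate or supply the proteasome, each shown once; red, higher; blue, lower; grey, not passed. The core assembly chaperones Psmg1 to Psmg4, Zfand2a, Zfand5, Uchl5 and Uba6 lie furthest right, and Psmb8, Vcp and Ddi2 furthest left.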

How the data were processed

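Poly(A) RNA of 8 libraries, 4 per lentivirus, was read as paired ends from strand-marking libraries, per the labels' protocols. Per the submitters' processing notes, HISAT2 2.2.1, StringTie 2.1.6, DESeq2 and cutadapt 1.9 were used with the build GRCm39. The authors deposited whole-number counts and FPKM (fragments scaled to transcript length and library size) per gene, and a table with, per its headers, DESeq2's log2 fold changes, p-values, test statistic (a score) and a signal that is the mean scaled count. The sources used here do not say how shared reads or strands were counted, and FPKM carry no TMM scaling.

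Counts were filtered with filterByExpr, scaled by TMM and tested with edgeR 4.0.16 (quasi-likelihood F test, R 4.3.3, a model of group alone), with Benjamini-Hochberg adjustment over 18439 genes and a threshold of 0.05. The filter stood at 0.165 CPM at the median library size, and all 36 tested genes exceeded it in every library of both groups. CPM are per TMM-scaled library total. Alternatives were 3 other scalings, 2 other filters, DESeq2 1.42.0, limma 3.58.1 on log2(FPKM + 1) and log2(FPKM + 0.1), a test against a 1.2-fold change, a replicate block and each library left out. On simulated counts for Lenti-Klf4 against Lenti-Ctrl the test recovered 52, 108 and 151 of 200 changed genes at folds of 1.2, 1.5 and 2. Only those 200 genes were changed there, whereas 72.2% of genes differed in the real libraries. These recoveries therefore do not give the power for the proteasome genes. Depth (57306334 to 87361995 counts per library) limits precision mainly for Psma8 and Psmb11; the floor of 3 counts covers counting error only.

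Members and lists were chosen with earlier results of these data known. Values per library are given for the 3 largest rises and the 3 largest falls among called genes, the most abundant member, the catalytic subunits, members that did not pass and the paralogs. From each list up to 2 genes per direction with the smallest adjusted p, and those that did not pass, are named. Psmd5, Psmd14 and further genes were added after their values were seen. Paaf1, on the list of assembly chaperones, was not analysed here, and a few genes of the functional lists are not reported here. Promoters are RefSeq windows (GRCm38.p6) matched by symbol.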

Additional observations from a re-analysis of the deposited data

Results flagged for a closer look

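Of 157 groups of 4 libraries screened gene by gene, 4 held a library that stood far from the other libraries of its group by Dixon's criterion at the 95% level, which chance alone exceeds in about 1 of 20 groups. Psmd12 had 107 CPM in Lenti-Klf4 replicate 1, against 97.4 to 98.7 CPM in the other Lenti-Klf4 libraries. Psmc6 had 170 CPM in Lenti-Ctrl replicate 2, against 175 to 176 CPM in the other Lenti-Ctrl libraries. Uba6, an enzyme that activates ubiquitin, had 96.1 CPM in Lenti-Klf4 replicate 1, against 90.3 to 90.7 CPM in the others of that group. Faf2, a p97 cofactor, had 90.4 CPM in Lenti-Klf4 replicate 4, against 81.9 to 82.5 CPM in the others of that group. No cause of these values was tested.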

How the results depend on the processing

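Psmd8, Psmb5, Psmc2, Psmd7, Psmd5, Psmd14 and Psmd2 kept direction and call under all 18 alternatives. Counts of higher and lower proteasome genes moved by over 1.5 times under the 1.2-fold test (7 higher, 3 lower) and for lower genes with library totals or FPKM (5 each). Leaving out 1 library gave 18 to 21 higher and 8 to 9 lower genes, and 33 to 36 called genes of the functional lists. With the replicate number as a block the counts were 21 higher and 8 lower, with 35 in the lists, and no call changed. Same-numbered libraries correlated at 0.0236 to 0.0555 in their deviations, so the numbers were not taken as pairs, although each library but Lenti-Klf4 replicate 3 correlated best with its own number.

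Genes near 0 changed sign. Against the main fit, the median over all genes moved by 0.19 (log2) with library totals, -0.067 with upper-quartile factors and -0.029 with RLE size factors. Nothing beyond this shift was tested as a cause. On the log2 scale, upper-quartile factors gave -0.015 for Psmb4, -0.0096 for Psmd3, -0.023 for Psmb3, -0.036 for Psme4, -0.063 for Psmd12, -0.064 for Psma6 and -0.061 for Psmc4. The 1 CPM filter gave -0.041, -0.042, -0.038, -0.014 and -0.00131 for Psmd12, Psma6, Psmc4, Psme4 and Psmb3. For Psmd12, Psma6 and Psmc4, DESeq2 gave -0.011, -0.012 and -0.00889, RLE gave -0.025, -0.026 and -0.022, and leaving out 1 library gave -0.041 to 0.014, -0.032 to 0.033 and -0.042 to 0.027. Library totals, log2(FPKM + 0.1) and log2(FPKM + 1) gave 0.0998, 0.104 and 0.102 for Psmb6, 0.00059, 0.0053 and 0.0052 for Psmc1, 0.0902, 0.0988 and 0.0909 for Pomp, 0.152, 0.156 and 0.154 for Nfe2l1, 0.128, 0.127 and 0.0985 for Ngly1, and 0.158, 0.163 and 0.159 for Ubqln1.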
